A study of Arabidopsis thaliana with 24 samples.

Results

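Some Arabidopsis transcripts were present in every library of some groups and at the bottom of the scale in every library of the others. A transcript counted as on in a library with 20 or more counts and as off with 2 or fewer. The first set held the 28 genes that were on in every library of IT LLC, IT HLC, SW LLW and SW LLC and off in every library of the other 4 groups. The second set held the 17 genes with the reverse order, on in IT LLW, IT HLW, SW HLW and SW HLC. These 45 genes of the 33610 in the table were chosen from the counts themselves, so the contrast between the groups that carried a set and those that did not is given below as a description, with no test.

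The samples were leaves of Arabidopsis thaliana in the vegetative state. IT is Castelnuovo-12, an ecotype from Italy, and SW is Rodasen-47, an ecotype from Sweden, each grown from the seed of a single sub-line, per the labels. Photoperiods of 9 h were given at a photon flux of 100 µmol m-2 s-1 in low light or 1000 µmol m-2 s-1 in high light. Leaf temperature in the light and in the dark was 25 °C and 20 °C in low light, warm (LLW) and in high light, warm (HLW), 16 °C and 12.5 °C in low light, cool (LLC), and 14 °C and 12.5 °C in high light, cool (HLC). Each of the 8 groups, IT or SW in 1 of these 4 regimes, held 3 libraries. RNA came from 2 discs (0.73 cm2) of the youngest leaf that was fully developed, sampled when the dark period of 15 h ended.

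Which groups carried a set followed neither the ecotype label, nor light, nor temperature. Both labels carried the first set in LLC and both carried the second set in HLW. In LLW the first set was on in SW and the second in IT, and in HLC the first set was on in IT and the second in SW. Groups are named here as labelled; whether each library came from the ecotype in its label was not tested. The library IT HLC replicate 3 stood apart. It held both sets at intermediate levels and was left out by the rule and by the tests, and its values are given at the end.

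The classes most frequent among these genes have known roles. Intracellular receptors with a nucleotide-binding domain and leucine-rich repeats (NLRs) detect pathogen effectors and trigger immune responses in plants. Receptor-like kinases sense signals at the cell surface. Pseudogene is used here as the class given by the annotation, and loci of this class can still be transcribed. Whether each is a decayed gene copy or a repeated element was not examined. NLR genes, orphan genes and pseudogenes are known as variable between natural accessions of Arabidopsis.

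Total counts ran from 10967425 to 17467653 a library, and plastid transcripts took 54.84% to 67.99% of them. The median biological coefficient of variation was 0.164 over 18145 genes tested. Levels in CPM (counts-per-million) were taken over all counts of a library, and the lowest value in the table is 1, so that off stands for about the lowest level that could be written. No library pair was identical. The 4 leaf markers summed to 8410 to 18600 CPM in every library used. Both seed markers were at 1 count in all libraries, the flower markers AG and AP3 never passed 4 counts, and the root marker PYK10 never passed 5. The other root marker, SCR, was at 2.37 to 7.84 CPM (median 5.04), up to 107 counts. In whole leaf RNA, fewer cells of a type and less RNA per cell cannot be told apart.

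The genes belonged to few classes. By the RefSeq annotation of assembly TAIR10.1, 18 of 45 were pseudogenes outside the NLR class, 12 in the first set and 6 in the second. Pseudogenes were 40% of the members and 1.94% of all genes tested. NLR genes were 7 of 45, which is 15.6% against 1.17% of all genes tested. They and the receptor kinases were found by words in the annotated product, for NLR genes also in the notes. ADR1-L3 was added to the NLR genes by its identifier and no other gene was, which favours the share among members. Receptor kinases were 3 of 45, 6.67% against 1.21%, and non-coding RNAs were also 3 of 45, 6.67% against 1.51%. The other 14 encode proteins of mixed kinds. Annotated protein-coding genes made up 23 of 45 members, 51.1%, against 94.9% of the genes tested.

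Most of the pseudogenes appeared in the table with a transcript suffix on their identifier. Of 3911 such identifiers, 3909 were annotated as pseudogenes and 185 reached 20 counts in any library. Of the members, 16 carried a suffix, 11 in the first set and 5 in the second, 35.6% against 1.2% of genes tested. The first-set pseudogenes were AT1G24370, AT1G42705, AT1G48680, AT3G42806, AT3G44035, AT4G04390, AT4G09595, AT4G28900, AT5G20750, AT5G33251, AT5G47815 and AT5G57126. The second-set ones were AT1G47565, AT2G10760, AT2G16690, AT3G44205, AT4G04130 and AT4G08093.

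The NLR genes of the first set were AT1G72840 and AT5G48770, both of the class with a TIR domain, ADR1-L3 (AT5G47280) and AT3G03855, which is annotated as a transcribed pseudogene. ADR1-L3 belongs to the ADR1 family of helper NLRs, which relay signals from sensor NLRs. The NLR genes of the second set were CSA1 (AT5G17880), DAR4 (AT5G17890, also known as CHS3) and AT5G46510. CSA1 and CHS3 are known as a receptor pair encoded head to head. DAR4 carries a LIM domain besides its NLR domains.

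The receptor kinases of the first set were AT1G11280, an S-locus lectin kinase, and AT3G46370, a kinase with leucine-rich repeats. That of the second set was CRK14 (AT4G23220), a cysteine-rich receptor-like kinase. The non-coding RNAs were AT4G01593 in the first set, which overlaps AT4G01595 on the other strand and cannot be told apart from it, and AT1G34418 and AT2G24755 in the second.

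The other first-set proteins were QQS (AT3G30720), an orphan protein that affects starch content and the partition of carbon and nitrogen, APD4 (AT2G38195), a RING/U-box protein, AT1G74280, an alpha/beta hydrolase, AT3G43740, with leucine-rich repeats, AT3G44070, a glycosyl hydrolase of family 35, AT3G57470, a peptidase of the insulinase family, AT3G61010, annotated as ferritin/ribonucleotide reductase-like, AT4G03500, with ankyrin repeats, and AT5G49640, uncharacterized. The other second-set proteins were THI2.2 (AT5G36910), a thionin, of the small antimicrobial peptides, AT1G64840, an F-box/kelch-repeat protein, AT2G04066, a MATE efflux protein, AT2G14285, of the small nuclear ribonucleoproteins, and AT2G31150, annotated as an ATPase.

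**Figure D1:**
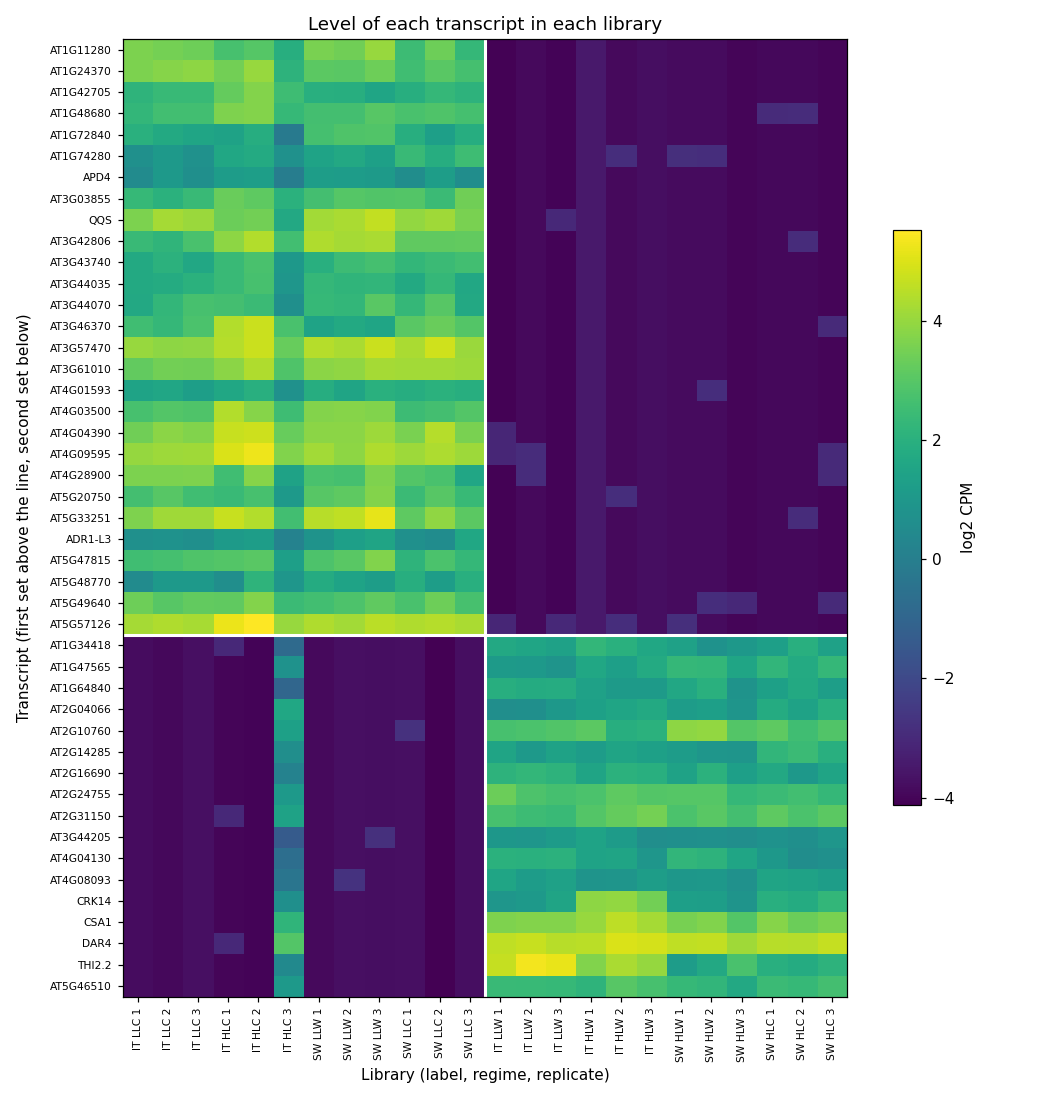
Level of each of the 45 transcripts (rows) in each of the 24 libraries (columns, by label, regime and replicate) as log2 CPM, with the 28 of the first set above the white line and the 17 of the second below. Colour changes at the vertical line between the groups that carry each set; the column IT HLC 3 shows both sets at intermediate levels.

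The members were spread over all 5 nuclear chromosomes. The first set had 6 genes on chromosome 1, 1 on chromosome 2, 9 on chromosome 3, 5 on chromosome 4 and 7 on chromosome 5. The second set had 3, 6, 1, 3 and 4 on the same chromosomes in that order. APD4 was thus the single first-set gene on chromosome 2, and AT3G44205 the single second-set gene on chromosome 3. The closest members were CSA1 and DAR4, on opposite strands with 1 annotated gene between them. Next came AT3G44035 and AT3G44070 of the first set, with 4 genes between, and AT3G44070 and AT3G44205, of different sets, with 22 between. All other pairs of neighbouring members had 45 or more genes between them.

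Summed over the set, the first-set transcripts took 209.4 to 393 CPM (median 263.6) in the 11 libraries of the groups that carried them and 1.82 to 2.55 CPM in the other 12. The second-set transcripts took 74.7 to 145 CPM (median 113.2) in 12 libraries and 0.973 to 1.37 CPM in the other 11. These values were fixed by the rule. At its edge, APD4 and AT5G48770 had a lowest count of 20 in the groups that carried the first set, while AT1G24800 and AT1G24881 had 19 and were left out. AT3G62460 reached at least 260 counts in every library of those groups but had 3 in an off library, and so was left out. In the second set AT4G08093 had a lowest count of 20 and AT3G44205 of 21, while AT2G15160 and AT2G42170 had 18 and were left out. AT1G11175, with at least 92 counts, was left out for 3 counts in an off library.

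Only 52 genes were either on or off in every group, in the 23 libraries used. Besides the 45 members, AT1G07050, AT1G70640, AT4G18422 and AT4G33980 were on only in both HLC groups. AT2G34210 and AT3G44510 were on only in SW HLC, and AT5G07650 only in SW LLC.

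Per kilobase of exon the levels spanned a wide range. QQS had the highest mean, 22.6 CPM per kilobase over the groups that carried it. THI2.2 followed with 16.1, AT5G33251 with 14.2 and AT5G49640 with 13.1 CPM per kilobase. The lowest mean was that of the NLR gene AT5G48770, 0.745 CPM per kilobase, and ADR1-L3 stood at 1.12. Among the NLR genes of the second set the mean was 4.58 CPM per kilobase for DAR4, 3.46 for CSA1 and 1.02 for AT5G46510. All 7 NLR genes were thus below the thionin and QQS per length.

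QQS was at 12.4, 18.6 and 16.6 CPM in IT LLC, 10.1 and 11.1 in IT HLC, 18.3, 19.4 and 24.7 in SW LLW, and 15.3, 17.5 and 11.8 in SW LLC. Its off libraries held 1 count in 11 of 12 and never more than 2. The mean was highest in SW LLW (20.8 ± 3.42 CPM, SD, n = 3) and lowest in IT HLC (10.6 ± 0.717, n = 2). SW LLW and IT HLC did not overlap, while IT LLC and SW LLC did.

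ADR1-L3 was at 1.65, 1.73 and 1.6 CPM in IT LLC, 2.19 and 2.39 in IT HLC, 1.76, 2.52 and 2.86 in SW LLW, and 1.65, 1.49 and 3.04 in SW LLC. APD4, at 1.44, 2.13 and 1.6 CPM in IT LLC, 2.31 and 2.45 in IT HLC, 2.37, 2.29 and 2.2 in SW LLW, and 1.5, 2.35 and 1.52 in SW LLC, was as low. Both stayed within a narrow band, with highest and lowest group means 1.43-fold apart for ADR1-L3 and 1.38-fold for APD4. Every off library of both genes held 1 count.

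The 5 first-set transcripts of highest mean CPM were 4 pseudogenes and the peptidase AT3G57470. AT5G57126 was at 18.4, 20.8 and 19.3 CPM in IT LLC, 37.7 and 45.8 in IT HLC, 20.6, 18 and 23.1 in SW LLW, and 20.4, 21.5 and 19.7 in SW LLC. AT4G09595 was at 15.9, 17.4 and 17.5 CPM in IT LLC, 31.2 and 38.8 in IT HLC, 18.1, 14.6 and 20.8 in SW LLW, and 17.2, 20.1 and 17.4 in SW LLC. AT4G04390 was at 10.8, 14.1 and 13 CPM in IT LLC, 26.1 and 27.8 in IT HLC, 14.2, 14.4 and 17.1 in SW LLW, and 12.1, 21.5 and 12 in SW LLC. In all 3 the libraries of IT HLC were above every other library, and the other groups lay close together.

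AT5G33251, a pseudogene related to beta-galactosidase, was at 12.5, 17.5 and 17.6 CPM in IT LLC, 26.2 and 21.1 in IT HLC, 22.2, 24.2 and 35.5 in SW LLW, and 8.77, 15.1 and 8.47 in SW LLC. Here SW LLW was highest on average and SW LLC lowest, without overlap between them. AT3G57470 was at 16.2, 14.7 and 15.2 CPM in IT LLC, 21.8 and 26.6 in IT HLC, 21.9, 19.8 and 27 in SW LLW, and 19.4, 27.9 and 16.9 in SW LLC. Its groups apart from IT LLC overlapped.

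The kinase AT3G46370 varied most among first-set genes, with group means 7.99-fold apart. It was at 5.9, 4.93 and 6.84 CPM in IT LLC, 21.4 and 26.5 in IT HLC, 2.78, 3.28 and 2.93 in SW LLW, and 8.32, 10 and 7.75 in SW LLC. No pair of these groups overlapped, in the order SW LLW, IT LLC, SW LLC and IT HLC from low to high. The least variable by group means was AT3G44070, 1.23-fold from lowest to highest.

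In the second set, DAR4 was at 23.8, 26 and 22.6 CPM in IT LLW, 23, 31.4 and 29.9 in IT HLW, 24.4, 24.8 and 17.5 in SW HLW, and 22.5, 21.6 and 25.1 in SW HLC. CSA1, its partner across the shared upstream region, was at 12.6, 13.3 and 13.2 CPM in IT LLW, 16.3, 23.3 and 18.8 in IT HLW, 11.6, 12.9 and 7.64 in SW HLW, and 13.6, 10.2 and 12.1 in SW HLC. IT HLW held the highest CSA1 libraries, with no overlap with the other groups, while the DAR4 groups overlapped. DAR4 exceeded CSA1 in each of these 12 libraries, in CPM and per kilobase of exon, the latter by 1.01 to 1.72 times.

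THI2.2 was at 25.7, 40.2 and 36.5 CPM in IT LLW, 12.9, 19.4 and 15.8 in IT HLW, 2.31, 3.24 and 6.76 in SW HLW, and 3.87, 3.53 and 4.36 in SW HLC. The IT groups lay above the SW groups with no overlap, and IT LLW above IT HLW, while the SW groups overlapped. Its group means spanned 8.71-fold, the widest range in either set. CRK14 was at 1.9, 2.08 and 2.81 CPM in IT LLW, 14.6, 15.3 and 11.1 in IT HLW, 2.52, 2.42 and 1.82 in SW HLW, and 3.87, 3.53 and 4.74 in SW HLC. IT HLW stood apart from every other group, SW HLC came next, and IT LLW and SW HLW overlapped.

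AT2G10760, a pseudogene, was at 6.58, 6.83 and 7.52 CPM in IT LLW, 8.48, 3.83 and 4.06 in IT HLW, 14.8, 15.6 and 7.58 in SW HLW, and 8.73, 5.93 and 7.45 in SW HLC. The libraries of a group were far apart in HLW, in which the groups overlapped. AT2G31150 was at 6.46, 5.62 and 5.32 CPM in IT LLW, 7.66, 9.44 and 11.4 in IT HLW, 6.86, 8.21 and 6.14 in SW HLW, and 8.8, 6.93 and 8.4 in SW HLC. IT LLW and IT HLW did not overlap in AT2G31150.

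**Figure D2:**
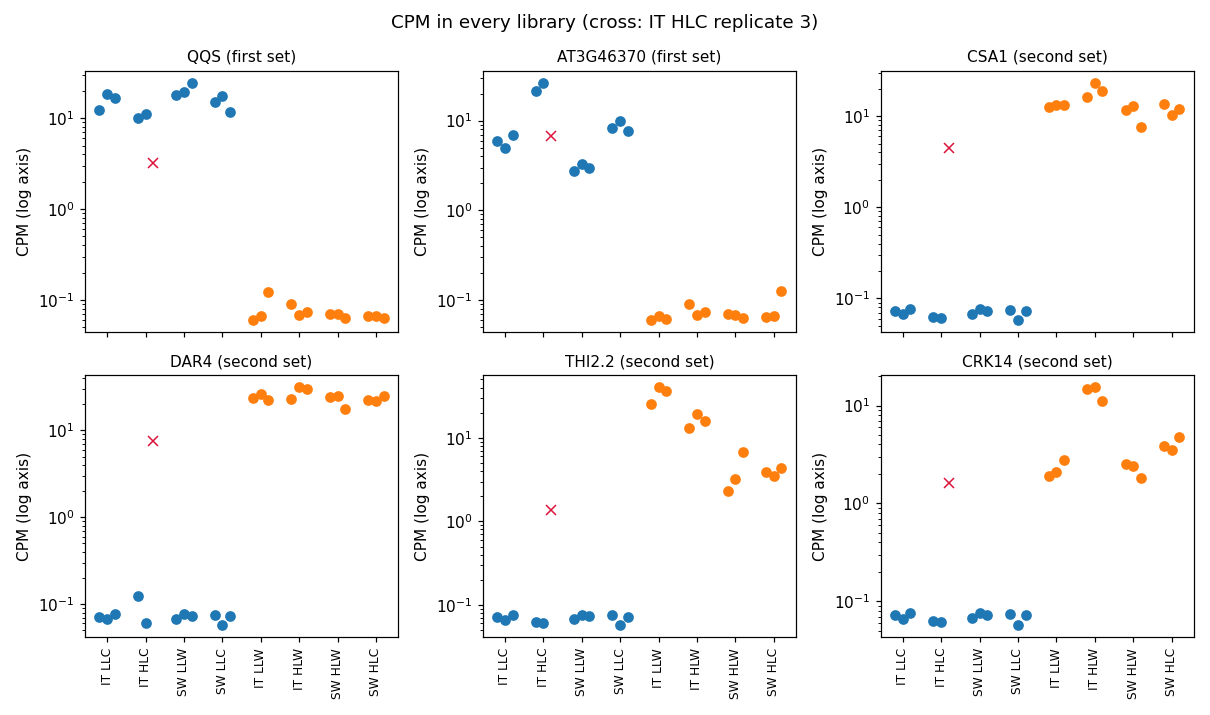
CPM on a log axis in every library for QQS and AT3G46370 of the first set and CSA1, DAR4, THI2.2 and CRK14 of the second, by group; blue points are libraries of the groups that carry the first set, orange points those of the groups that carry the second, and the cross is IT HLC replicate 3. Off libraries lie near 0.1 CPM or below, and AT3G46370, THI2.2 and CRK14 differ most among the groups that carry them.

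The groups that all carried a set were compared by edgeR's quasi-likelihood test with Benjamini-Hochberg adjustment over 18145 genes, a gene being called at an adjusted p below 0.05. The rule did not use these differences, and IT HLC entered with 2 libraries, replicate 3 being left out. Each gene's spread was taken from all 8 groups, for members also from the groups in which they were off. How far this moved the SE and adjusted p of members was not tested. Fold changes are log2 values after trimmed-mean (TMM) normalization, with standard errors (SE), and differ from ratios of CPM by the shift in TMM factor between the groups. The split of calls into higher and lower moved by over 10 percentage points without the TMM factor, so both splits are given. The shift was largest, 0.48 on the log2 scale, in IT HLC against IT LLC, where a gene with the same CPM in both groups has a negative fold change of that size. The libraries of LLW and HLC carry codes of a series with letters and those of LLC and HLW codes of a series with numbers. Comparisons within a regime or between LLW and HLC stay in a series, and in the others the series and the regime cannot be told apart.

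In LLC, where both labels carried the first set, 6 of 28 genes were higher in SW than in IT and 6 lower. That is 42.9% of the members, against 43.0% of all genes tested (22.8% higher and 20.2% lower). With no TMM factor 9 were higher and 4 lower, and of all genes 29% and 11.9%. The hydrolase AT1G74280 was higher in SW LLC (4.93 ± 1.12 CPM against 1.82 ± 0.272, n = 3 each, log2 1.22, SE 0.20, adjusted p = 8.07e-05, edgeR). AT3G61010 was also higher (log2 0.57, SE 0.10, adjusted p = 0.000258, edgeR), as was the pseudogene AT3G42806 (log2 0.49, SE 0.14, adjusted p = 0.00934, edgeR). The AT3G42806 call was lost with the LLC libraries alone in the fit (adjusted p = 0.0737, edgeR) and with all 24 libraries (adjusted p = 0.0569, edgeR). Lower in SW LLC were the pseudogenes AT1G24370 (log2 -1.20, SE 0.13, adjusted p = 2.67e-06, edgeR) and AT4G28900 (log2 -1.30, SE 0.29, adjusted p = 0.00141, edgeR) and the lectin kinase AT1G11280 (log2 -0.91, SE 0.20, adjusted p = 0.00128, edgeR). Of the NLR genes, AT3G03855 was called, higher in SW LLC (log2 0.52, SE 0.19, adjusted p = 0.0311, edgeR). ADR1-L3 (log2 0.08, SE 0.23), APD4 (log2 -0.15, SE 0.21) and QQS (log2 -0.30, SE 0.14, adjusted p = 0.101, edgeR) did not pass the test. The median over the 28 members was -0.12 and over all genes -0.02, and the median size was 0.35 against 0.51. With DESeq2 the count was 7 of 28, against 41.6% of all genes. It was 6 of 28, against 38.1% of all genes, with the SW LLC and IT LLC libraries alone in the fit.

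Between the regimes furthest apart, IT HLC and SW LLW both carried the first set, and light, temperature and label changed together. In IT HLC 7 of 28 genes were higher and 4 lower, 39.3% against 37.5% of all genes tested (18.6% higher and 18.8% lower). The split was 8 higher and 4 lower without the TMM factor, and 21.5% and 13.9% of all genes. Fitted alone, these groups gave 6 higher and 4 lower, with 23.8% of all genes called. The kinase AT3G46370 differed most (23.9 ± 3.62 CPM, n = 2, against 3 ± 0.257, n = 3, log2 2.85, SE 0.15, adjusted p = 5.99e-10, edgeR). The pseudogenes AT1G42705 (log2 1.51, SE 0.16, adjusted p = 9.28e-07, edgeR) and AT5G57126 (log2 0.87, SE 0.11, adjusted p = 6.75e-06, edgeR) were higher in IT HLC too. QQS was lower in IT HLC (log2 -1.10, SE 0.17, adjusted p = 3.84e-05, edgeR), and so were the NLR gene AT1G72840 (log2 -1.27, SE 0.19, adjusted p = 4.62e-05, edgeR) and the pseudogene AT5G20750 (log2 -0.90, SE 0.20, adjusted p = 0.00128, edgeR). The other 3 first-set NLR genes and APD4 did not pass this test. The median over the members was -0.01 and over all genes 0.001, and the median size was 0.30 against 0.49.

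The remaining pairs of first-set groups set a cool against a warm or a high against a low light regime within a label, and a library series against the other. In SW LLC against SW LLW 4 of 28 genes were higher and 7 lower, 39.3% against 40.7% of all genes (21.4% higher and 19.4% lower). With no TMM factor 2 were higher and 9 lower, and of all genes 14.7% and 22.1%. AT3G46370 (log2 1.66, SE 0.15, adjusted p = 3.62e-07, edgeR) and AT1G74280 (log2 0.90, SE 0.19, adjusted p = 0.000869, edgeR) were higher in LLC. AT3G42806 (log2 -1.0, SE 0.14, adjusted p = 2.39e-05, edgeR), AT5G33251 (log2 -1.20, SE 0.20, adjusted p = 0.000112, edgeR) and the NLR gene AT1G72840 (log2 -0.96, SE 0.17, adjusted p = 0.00023, edgeR) were lower in LLC. AT1G42705 passed narrowly (log2 0.41, SE 0.15, adjusted p = 0.0389, edgeR) and did not pass with DESeq2 (adjusted p = 0.132) or without the TMM factor (adjusted p = 0.188, edgeR). With the SW LLC and SW LLW libraries alone in the fit the count was 6 of 28, against 34.2% of all genes.

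In IT HLC against IT LLC 8 of 28 genes were higher and 6 lower, 50% against 36.9% of all genes (18.9% higher and 18.0% lower). The split was 15 higher and 2 lower without the TMM factor, and 40.5% and 7.62% of all genes. It was 7 higher and 3 lower with only these groups in the fit, and 22.5% of all genes were called. AT3G46370 (log2 1.54, SE 0.15, adjusted p = 7.62e-07, edgeR), AT3G42806 (log2 1.2, SE 0.15, adjusted p = 1.35e-05, edgeR) and AT5G57126 (log2 0.61, SE 0.11, adjusted p = 0.000354, edgeR) were higher in HLC. QQS (log2 -1.05, SE 0.17, adjusted p = 0.000106, edgeR) and AT1G11280 (log2 -1.15, SE 0.23, adjusted p = 0.000833, edgeR) were lower. AT5G20750 was also lower (log2 -0.67, SE 0.20, adjusted p = 0.0116, edgeR), a call lost without the TMM factor (log2 -0.19, adjusted p = 0.504, edgeR). Without IT HLC replicate 1 the count fell to 9 of 28, with IT HLC at 1 library that is assumed to vary like the other groups. These 4 comparisons share groups, so a member's calls in them are not independent. ADR1-L3, AT5G48770, APD4, AT3G57470 and AT3G44070 were among the first-set genes called in none of them.

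In the second set, SW HLW against IT HLW had 3 of 17 genes higher and 5 lower, 47.1% against 24.6% of all genes tested (10.4% higher and 14.2% lower). With no TMM factor 2 were higher and 4 lower, and of all genes 5.1% and 15.4%. The kinase CRK14 was lower in SW (2.25 ± 0.38 CPM against 13.7 ± 2.23, n = 3 each, log2 -2.50, SE 0.18, adjusted p = 1.13e-07, edgeR). CSA1 was lower too (10.7 ± 2.75 CPM against 19.5 ± 3.55, n = 3 each, log2 -0.76, SE 0.12, adjusted p = 0.000167, edgeR), as was THI2.2 (log2 -1.77, SE 0.30, adjusted p = 0.000256, edgeR). DAR4 did not pass the test (log2 -0.23, SE 0.11, adjusted p = 0.132, edgeR), and AT5G46510, the remaining NLR gene, passed (log2 -0.45, SE 0.15, adjusted p = 0.038, edgeR). Whether CSA1 and DAR4 differed in this from each other was not tested. The pseudogenes AT2G10760 (log2 1.28, SE 0.27, adjusted p = 0.00154, edgeR) and AT4G04130 (log2 0.75, SE 0.17, adjusted p = 0.00381, edgeR) were higher in SW. AT1G47565 passed (log2 0.57, SE 0.19, adjusted p = 0.0334, edgeR) but not with DESeq2 (adjusted p = 0.112). The median over the 17 members was -0.23 and over all genes -0.02. The count was 5 of 17 with DESeq2, against 24.3% of all genes. It was also 5 with the HLW libraries alone in the fit, against 25.5% of all genes, and 5 without SW HLW replicate 2.

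SW HLC against IT LLW gave 4 of 17 genes higher and 8 lower, 70.6% against 45.9% of all genes tested (23.9% higher and 22.0% lower). The split was 5 higher and 4 lower without the TMM factor, and 36.6% and 11.8% of all genes. It was 2 higher and 8 lower with only these groups in the fit, and 53.8% of all genes were called. THI2.2 differed most, lower in SW HLC (3.92 ± 0.416 CPM against 34.1 ± 7.54, n = 3 each, log2 -3.48, SE 0.31, adjusted p = 4.17e-08, edgeR). The pseudogene AT4G04130 (log2 -1.58, SE 0.18, adjusted p = 7.33e-07, edgeR) and the non-coding RNA AT2G24755 (log2 -0.87, SE 0.14, adjusted p = 6.16e-05, edgeR) were lower in SW HLC as well. AT1G47565 (log2 0.74, SE 0.19, adjusted p = 0.00366, edgeR) was higher. AT2G14285 (log2 0.52, SE 0.15, adjusted p = 0.0101, edgeR), AT2G04066 (log2 0.61, SE 0.19, adjusted p = 0.0114, edgeR) and CRK14 (log2 0.49, SE 0.18, adjusted p = 0.0311, edgeR) were higher by edgeR, but not by DESeq2 (adjusted p = 0.099, 0.0917 and 0.163 in that order). CSA1 (log2 -0.48, SE 0.12, adjusted p = 0.00312, edgeR) and DAR4 (log2 -0.41, SE 0.11, adjusted p = 0.00399, edgeR) were called lower, but their CPM groups overlapped. Without the TMM factor CSA1 was at log2 -0.13 (adjusted p = 0.56, edgeR) and DAR4 at log2 -0.06 (adjusted p = 0.753, edgeR). The median over the members was -0.35 and over all genes 0.01.

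In SW HLC against SW HLW 2 of 17 genes were higher and 4 lower, 35.3% against 40.5% of all genes (22.9% higher and 17.7% lower). With no TMM factor 3 were higher and 2 lower, and of all genes 33.9% and 8.53%. Fitted alone, these groups gave 1 higher and 3 lower, with 47.2% of all genes called. AT2G14285 was higher in HLC (log2 0.89, SE 0.16, adjusted p = 0.000198, edgeR), and so was CRK14 (log2 0.55, SE 0.18, adjusted p = 0.0192, edgeR), which did not pass with DESeq2 (adjusted p = 0.13). AT4G04130 (log2 -1.47, SE 0.18, adjusted p = 3.15e-06, edgeR) and AT2G10760 (log2 -1.06, SE 0.26, adjusted p = 0.00277, edgeR) were lower. AT2G24755 was lower too (log2 -0.64, SE 0.14, adjusted p = 0.00162, edgeR), but not without the TMM factor (log2 -0.35, adjusted p = 0.152, edgeR). CSA1, DAR4 and THI2.2 did not pass the test.

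In IT HLW against IT LLW 4 of 17 genes were higher and 4 lower, 47.1% against 22.1% of all genes (10.7% higher and 11.4% lower). The split was 4 higher and 2 lower without the TMM factor, and 13.8% and 6.12% of all genes. Fitted alone, these groups gave 3 higher and 3 lower, with 25.6% of all genes called. CRK14 was higher in HLW (log2 2.44, SE 0.18, adjusted p = 1.71e-07, edgeR), as was AT2G31150 (log2 0.56, SE 0.14, adjusted p = 0.00818, edgeR). THI2.2 (log2 -1.26, SE 0.27, adjusted p = 0.00276, edgeR), AT4G04130 (log2 -0.85, SE 0.17, adjusted p = 0.00165, edgeR) and AT1G64840 (log2 -0.76, SE 0.21, adjusted p = 0.012, edgeR) were lower. AT1G64840 did not pass without the TMM factor (adjusted p = 0.0743, edgeR). CSA1 was higher (log2 0.41, SE 0.12, adjusted p = 0.0186, edgeR), with an adjusted p of 0.0717 in DESeq2. The count was 5 of 17 with DESeq2, against 21.9% of all genes. It was also 5 without IT LLW replicate 1 or without IT HLW replicate 2.

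**Figure D3:**
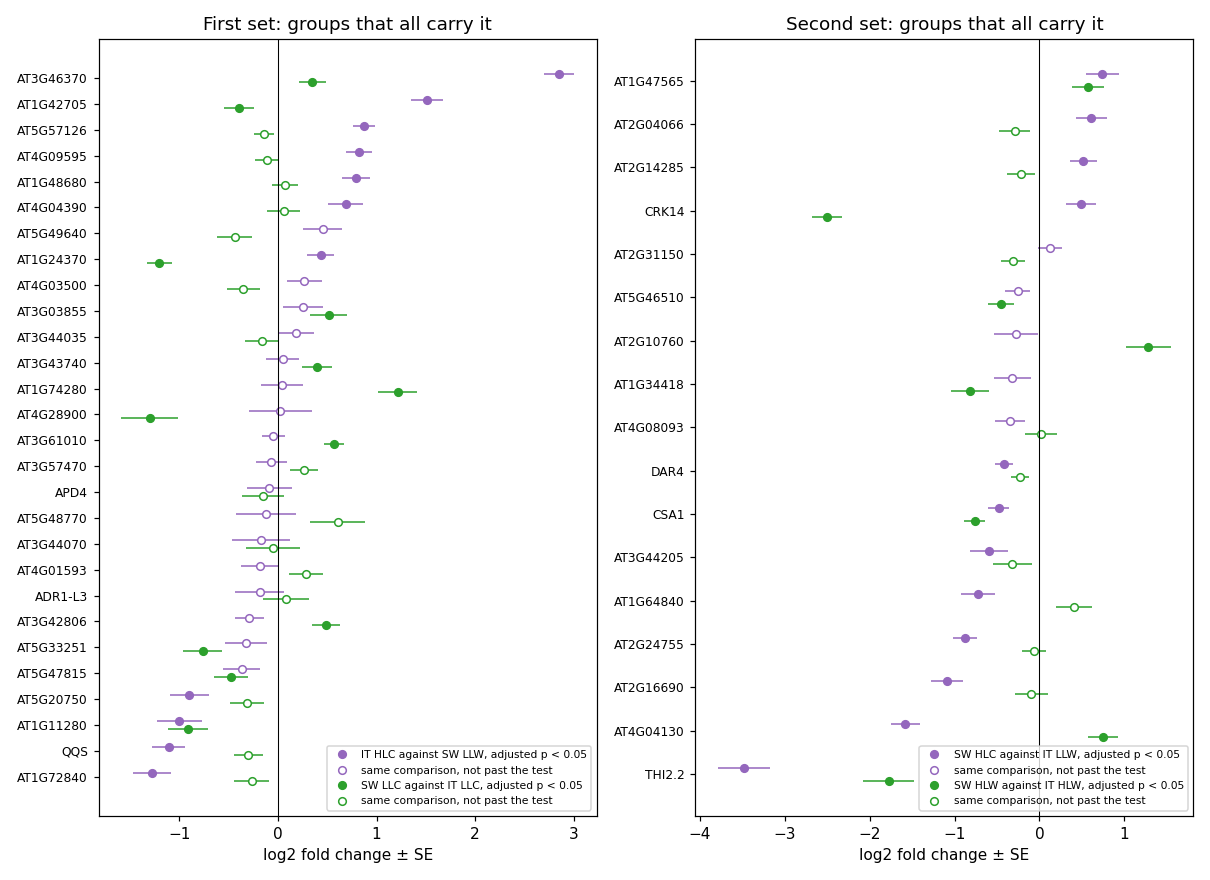
Log2 fold change with its SE for each transcript in 2 comparisons a set, all between groups that carry it; filled points passed the test at an adjusted p below 0.05 and open points did not. AT3G46370 reaches 2.85 in IT HLC against SW LLW, and THI2.2 reaches -3.48 in SW HLC against IT LLW.

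The genes beside the members in the annotation were then examined, since the rule did not use them. Both labels could be compared in LLW and in HLC with no library in common. Of the genes tested 25.7% differed between the labels in LLW (13.0% higher and 12.7% lower in SW) and 27.9% in HLC (14.5% higher and 13.4% lower). The shares without the TMM factor were 44.9% in LLW (39.8% higher and 5.13% lower) and 30.7% in HLC (8.98% higher and 21.8% lower), and with only the compared groups in the fit they were 37.5% and 11.1%. A gene with the order of the first set is higher in SW in LLW and higher in IT in HLC. That was so, past both tests, for 6.22% of all genes, and the order of the second set held for 6.24%, together 12.5%. Without the TMM factor these shares were 16.1% and 2.9%. All 45 members have the order of their set by the rule.

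Of 89 adjacent genes that were not members, 80 were in the table and 33 passed the filter on low counts. In LLW 26 of these 33 were called, 78.8%, and in HLC 22, 66.7%. The same order as the member beside them, past both tests, was found for 20 of 33, 60.6%, comprising 11 of 18 beside the first set and 9 of 15 beside the second. The opposite order was found for 1, ADF5, an actin depolymerizing factor beside AT2G16690. Of the 33, 5 overlap the member on the genome; without them 16 of 28 had the same order. Without the TMM factor 17 of 33 had the same order, 11 of 18 beside the first set and 6 of 15 beside the second, and 13 of the 28 that do not overlap. With distance the share with the same order was 19.1% of 42 genes at the second place, 16.7% of 36 at the third, 9.72% of 72 at 4 to 5 places, 3.98% of 176 at 6 to 10 places and 6.25% of 320 at 11 to 20 places.

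The filter on low counts keeps a gene for the groups in which it is high, and 6 of the 33 were themselves at 2 counts or fewer on 1 side. Among adjacent genes with a mean of 10 or more counts in every group, 7 of 18, 38.9%, had the order of the member beside them and 1 had the opposite order. Of all genes that abundant, 4.74% had the order of the first set and 5.73% that of the second. This restriction and the distances were chosen after the values were seen.

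The adjacent genes with the largest differences lay beside second-set members. AT5G46500, next to the NLR gene AT5G46510, was at 25.6 ± 3.61 CPM in IT LLW and 0.828 ± 0.23 in SW LLW, and at 31.1 ± 7.85 in SW HLC and 1.58 ± 0.504 in IT HLC. The pseudogene AT2G16680, next to AT2G16690, was at 17.3 ± 1.99 CPM in IT LLW and 0.243 ± 0.0546 in SW LLW, and at 8.89 ± 2.39 in SW HLC and 0.37 ± 0.169 in IT HLC. Both had the order of the second set. AT2G24750 and AT2G24760 overlap the non-coding RNA AT2G24755 on the other strand, and AT2G31141 overlaps AT2G31150. The sources used here do not say whether counting used strand, and reads of such overlapping pairs cannot be told apart.

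Beside the first-set NLR genes AT5G48770, AT1G72840 and ADR1-L3, other resistance genes had the same order. AT5G48780, next to AT5G48770, was at 1.75 ± 0.323 CPM in SW LLW and at 2.13 ± 0.712 in IT HLC, against 0.0625 ± 0.004 in IT LLW and 0.0651 ± 0.00178 in SW HLC. AT1G72850, next to AT1G72840, was at 2 ± 0.49 CPM in SW LLW and 1.45 ± 0.153 in IT HLC, and at the lowest count in IT LLW and SW HLC. AT5G48780 and AT1G72850 passed the filter on low counts only through the groups in which they are high. AT5G47260, next to ADR1-L3, was at 4.37 ± 0.315 CPM in SW LLW against 0.398 ± 0.188 in IT LLW, and at 5.46 ± 1.45 in IT HLC against 0.196 ± 0.0682 in SW HLC. The non-coding RNA AT5G48775 overlaps AT5G48770 on the opposite strand and cannot be told apart from it.

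Some adjacent genes with the same order had means above the lowest count in each LLW and HLC group. AAP6, an amino acid permease next to AT5G49640, was at 26.7 ± 5.16 CPM in SW LLW and 8.54 ± 3.53 in IT LLW (log2 1.2, SE 0.21, adjusted p = 0.000296, edgeR), and at 10.1 ± 1.92 in SW HLC and 44.6 ± 5.99 in IT HLC (log2 -1.93, SE 0.23, adjusted p = 3.29e-06, edgeR). NF-YA3, a transcription factor subunit next to AT1G72840, was at 6.47 ± 1.22 CPM in SW LLW and 1.15 ± 0.333 in IT LLW, and at 2.19 ± 0.267 in SW HLC and 16.7 ± 9.37 in IT HLC. PFK2, a phosphofructokinase next to AT5G47815, was at 4.8 ± 1.28 CPM in SW LLW and 0.453 ± 0.179 in IT LLW, and at 1.17 ± 0.0351 in SW HLC and 6.58 ± 0.384 in IT HLC. All 3 were past both tests. PSRP6, a plastid ribosomal protein gene next to CSA1, had the order of the second set with smaller differences (log2 -0.70, SE 0.23, adjusted p = 0.0329 in LLW and log2 1.42, SE 0.27, adjusted p = 0.000666 in HLC, edgeR). CRK15, next to CRK14, was at 0.854 ± 0.107 CPM in IT LLW and 2.02 ± 0.242 in SW HLC and at or near the lowest count in the other groups of these comparisons.

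**Figure D4:**
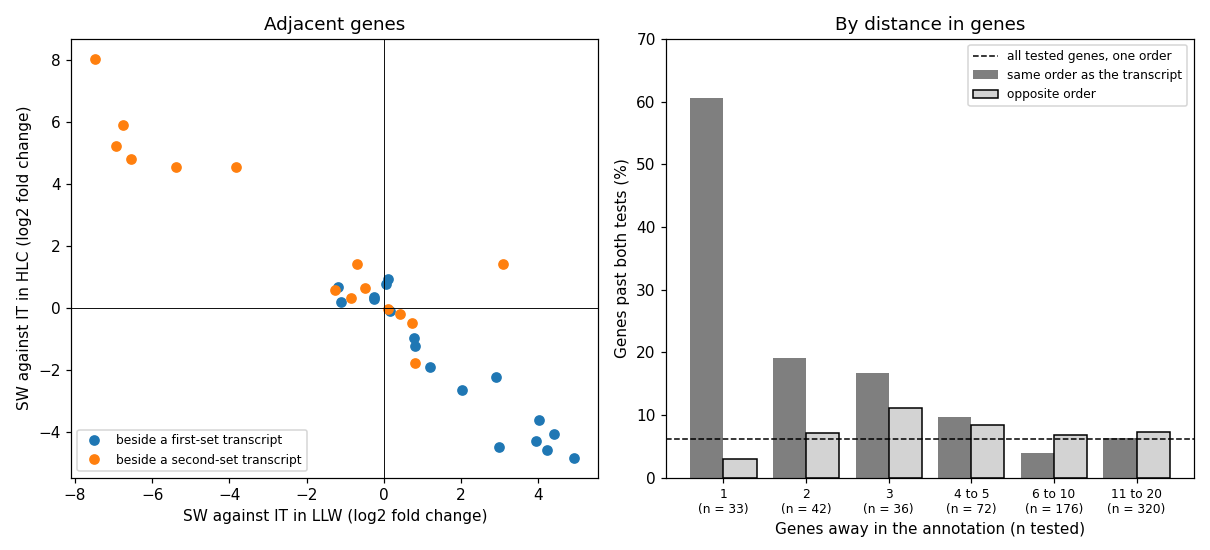
Left, log2 fold change of SW against IT in LLW (x axis) and in HLC (y axis) for the tested genes adjacent to members, coloured by the set of the member. Most values beyond about 4 in size belong to genes near the lowest count and depend on the fit. AT5G46500, at 0.828 CPM in SW LLW and 1.58 in IT HLC, is an exception. Right, percent of tested genes past both tests with the same order as the member (dark bars) or the opposite (light bars), by distance in genes, falling from 60.6% at 1 gene to 6.25% at 11 to 20 genes, with the share of all tested genes in 1 order as a dashed line.

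The closest relatives of the members by protein identity were examined, wherever they lay in the genome. Of 23 protein-coding members, 21 had a relative over at least 50% of their length, with an identity of 40.5% to 100% to the closest (median 66.1%). QQS, with 59 amino acids, and AT5G49640, with 70, had none. In 5 cases the closest relative was at least 90% identical. RUXF is 100% identical to AT2G14285, AT2G04080 is 98.5% identical to AT2G04066, APD3 is 96.5% identical to APD4, AT5G46520 is 92.7% identical to AT5G46510, and AT1G74290 is 91.4% identical to AT1G74280. AT3G57470 has a relative at 80.5%, AT2G41790.

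Of 15 closest relatives that were tested, 2 are members, AT1G72840 and AT5G48770, which are each other's closest relatives at 47.2% identity and whose order the rule fixed. Of the other 13, 2 had the order of the member past both tests, 1 had the opposite order and 10 had neither, against 6.22% and 6.24% of all genes in the first and the second order. The 2 were APD3 and AT1G74290, which also lies beside AT1G74280. Both were at or near the lowest count in IT LLW and SW HLC. They passed the filter on low counts only through the groups in which they are high, so their order is given as a description. APD3 was at 1.37 ± 0.16 CPM in SW LLW and 1.36 ± 0.504 in IT HLC, and at the lowest count in IT LLW and SW HLC. AT2G04080 had the order opposite to AT2G04066, with 18.2 ± 3.59 CPM in SW LLW against 5.59 ± 1.14 in IT LLW, and 10.2 ± 0.693 in SW HLC against 29 ± 2.11 in IT HLC. RUXF, at 5.29 to 7.58 CPM on average in these 4 groups, was called in neither. Reads from parts that such relatives share can be assigned to either gene, so the values of these pairs are uncertain.

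At the level of the genome sequence, 13 of 45 members, 28.9%, had another place with at least 90% identity over at least 200 bases, against 9.13% of the tested nuclear genes. Of the 16 members with a suffix 8 had such a place, 50% against 60.8% of tested genes with a suffix. The pseudogenes AT1G48680, AT4G09595 and AT5G57126 matched each other at 96.7% to 98.8% identity over stretches of up to 4096 bases, so their counts may hold each other's reads. Their similar levels by group are therefore not independent.

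Windows from 250 bases before to 50 after the annotated start, from RefSeq TAIR10.1, were searched on both strands for short motifs. TATAAA, the letters of a TATA box, was in 7 of 28 first-set windows (25.0%) and 6 of 17 second-set windows (35.3%), against 48.8% of 37897 windows of all genes. TTGACC and TTGACT, forms of the W-box bound by WRKY factors, were in 17.9% and 32.1% of first-set windows and 13.5% and 21.2% of all windows. In the second set they were in 0 of 17 windows (0.0%) and 6 of 17 (35.3%). CACGTG and GCCGAC were each in 1 first-set window (3.6%) and in 0 of the 17 second-set windows, against 6.5% and 3.3% of all windows. These are matches of letters in windows, for pseudogenes at starts that may not be transcription starts.

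Lists of genes that work with some of the members were compared between the labels, in LLW and in HLC. The helper NLRs and the EDS1 module, through which NLRs with a TIR domain signal, had 9 genes, all tested. In both regimes 1 of 9 was called, against 25.7% of all genes in LLW and 27.9% in HLC. This was ADR1-L1, higher in SW in LLW (log2 0.70, SE 0.20, adjusted p = 0.0138, edgeR) and lower in HLC (log2 -0.92, SE 0.22, adjusted p = 0.00408, edgeR). The closest relative of ADR1-L3, ADR1-L2, did not pass (log2 0.35, SE 0.27, in LLW and log2 -0.54, SE 0.30, in HLC). The median over the list was 0.36 in LLW and -0.06 in HLC. EDS1 and PAD4 were not called in LLW or in HLC.

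Genes of DNA methylation and RNA-directed silencing, which act on transposons and other repeated sequence, numbered 12, all tested. In LLW 1 of 12 was called and in HLC 3 of 12, against 25.7% and 27.9% of all genes. In LLW it was SUVH4, a histone methyltransferase, higher in SW (log2 1.27, SE 0.37, adjusted p = 0.0154, edgeR). In HLC SUVH4 (log2 2.37, SE 0.47, adjusted p = 0.000941, edgeR) and AGO4 (log2 0.87, SE 0.30, adjusted p = 0.0371, edgeR) were higher in SW and RDR2 (log2 -0.80, SE 0.19, adjusted p = 0.00384, edgeR) lower. SUVH4 thus did not have the order of either set. Its level was low, 0.98 ± 0.097 CPM in SW HLC and 0.216 ± 0.0405 in IT HLC, and never passed 36 counts in the libraries used. AGO4 was at 15.7 ± 1.95 CPM in SW HLC and 9.9 ± 5.09 in IT HLC, whose libraries differed widely. NF-YC4, a subunit known to bind the QQS protein, had the order of the second set, as did 6.24% of all genes. It was lower in SW in LLW (log2 -1.20, SE 0.25, adjusted p = 0.0013, edgeR) and higher in HLC (log2 1.01, SE 0.29, adjusted p = 0.0128, edgeR). In HLC it was at 15.2 ± 1.15 CPM in SW and 8.64 ± 5.81 in IT, whose 2 libraries differed widely. A relation to the level of QQS was not tested. THI2.1, a related thionin gene, never passed 2 counts and was not tested.

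IT HLC replicate 3 was not used by the rule. All 28 first-set and all 17 second-set transcripts had more than 2 counts in it. The first set summed to 133.2 CPM there, against 333.2 and 393 in IT HLC replicates 1 and 2. The second set summed to 34.9 CPM, against 89.2 to 99.9 in SW HLC and 1.04 and 1.25 in the other IT HLC libraries. It was the only library with both sets.

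As a share of the mean of IT HLC replicates 1 and 2, the first-set transcripts had a median of 36.7% in replicate 3, from 25.9% for AT5G33251 to 64.2% for AT5G48770. As a share of the mean of SW HLC, the second-set transcripts had a median of 35%, from 18.7% for AT1G64840 to 90.4% for AT2G04066. DAR4 was at 7.61 CPM, 118 counts, CSA1 at 4.51 CPM, 70 counts, and QQS at 3.22 CPM, 50 counts. Where AT2G04066 stood highest, its relative AT2G04080 is 98.5% identical and was abundant in IT HLC; its part in this value was not tested. With a single library no test was made.

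**Figure D5:**
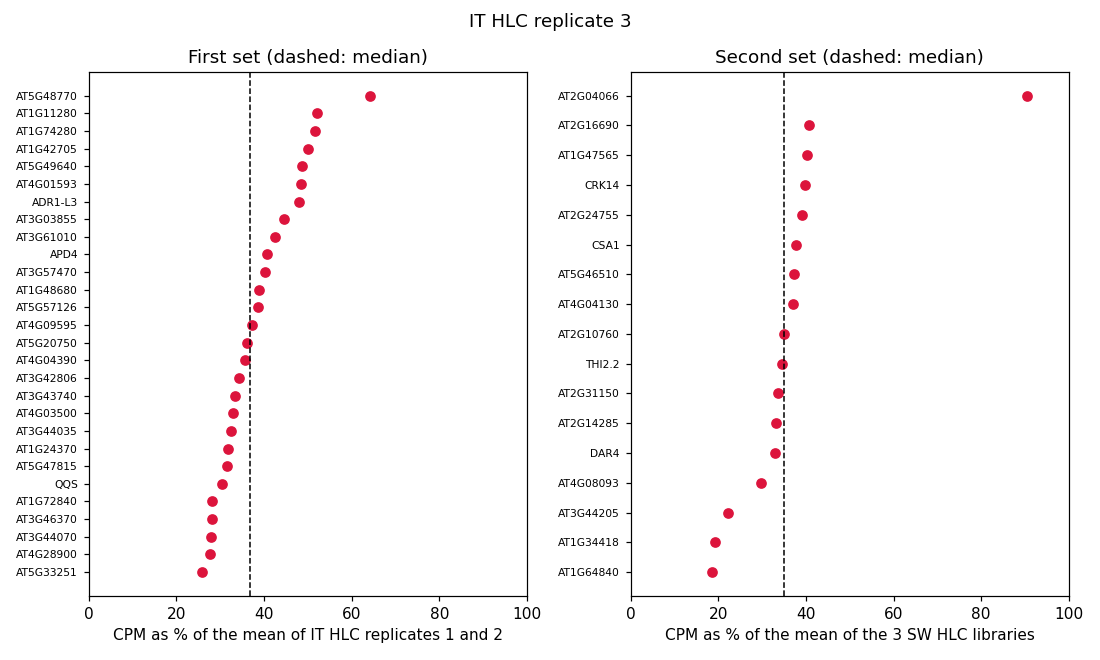
CPM of each transcript in IT HLC replicate 3 as a percent of the mean of IT HLC replicates 1 and 2 (left, first set) and of the mean of the 3 SW HLC libraries (right, second set), with the median as a dashed line. The medians are 36.7% and 35%, and AT2G04066 stands apart at 90.4%.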

How the data were processed

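The deposited table holds whole-number counts per gene identifier for 24 libraries made from ribosome-depleted leaf RNA; per the submitters' processing notes, the tools were HISAT, StringTie and DESeq2 and the build was TAIR10, with no versions, roles or options. No step that set the lowest value to 1 is described, so an offset or a replacement of 0 are both possible. Since Castelnuovo-12 and Rodasen-47 were counted on a single reference, a transcript that differs from it in sequence can be counted less.

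Members and lists were chosen with earlier results of these data known. The named genes were the members with a symbol, the 5 of highest mean CPM in each set and, in each comparison, up to 3 called members of smallest adjusted p in each direction; adjacent genes and relatives were taken by size of difference and by identity. The counts were tested with edgeR 4.0.16 in R 4.3.3 (glmQLFit with robust estimation, TMM) on 23 libraries in 8 groups, after filterByExpr (minimum count 10, minimum total 15), without a replicate block. The labels call the libraries biological replicates but do not say whether they came from separate plants or growth runs; the p-values then reflect only how far these libraries differ, which may be technical. The fit was tested on simulated data. DESeq2 1.42.0 served as an alternative.

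All 45 members matched a locus of the RefSeq annotation of TAIR10.1, and of all identifiers 32843 matched and 767 did not. As that assembly is not the build named, no coordinates or sequences are printed; it gave names, classes, gene order, exon lengths and, with BLAST 2.17.0+, identity (at least 50% of the protein, E-value below 1e-10; at least 90% over 200 bases for genome sequence). Intervals were not computed for off libraries, which the table cannot separate from 0.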

Additional observations from a re-analysis of the deposited data

Results flagged for a closer look

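IT HLC replicate 3 was outside the comparisons and held transcripts of both sets. The median second-set transcript stood at 35% of its mean in SW HLC, while the other IT HLC libraries held 2 counts or fewer of each. The median first-set transcript stood at 36.7% of its mean in the other IT HLC libraries.

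Some genes beside members differed between the labels in opposite directions in LLW and in HLC. For 2 that do not overlap the member, the change in the SW against IT contrast from LLW to HLC is given with no test. Both were chosen for their large differences in these same contrasts, so a p-value would add no support. The change was log2 11.36 for AT2G16680 and log2 9.92 for AT5G46500 in the edgeR fit. By CPM within HLC, AT2G16680 was 24-fold and AT5G46500 19.7-fold higher in SW than in IT. AT2G16680 was low in SW LLW (0.243 CPM) and IT HLC (0.37 CPM), and the filter on low counts keeps a gene for the groups in which it is high. The others overlap their member on the opposite strand, so their reads cannot be told apart from those of the member, whose order the rule fixed. They too are given as a description with no test. AT2G31141, overlapping AT2G31150, was at least 86.5-fold higher in SW HLC than in IT HLC, and its libraries in IT LLW varied widely (10.5 ± 12.6 CPM, SD). AT2G24750 and AT2G24760, both overlapping AT2G24755, were at least 44.6-fold and 33.2-fold higher in SW HLC. AT5G48775, overlapping AT5G48770, was at least 12.7-fold higher in IT HLC than in SW HLC, and passed the filter on low counts only through the groups in which it is high. Where a group was at or under 3 counts a library, the fold is a bound against that floor, which covers counting error only.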

How the results depend on the processing

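How many genes met the rule depended on its thresholds. The first set held 63 genes with 10 counts as the lower limit for on, 16 with 50 and 15 with at most 1 count for off. The second set held 31, 5 and 11 in the same order and 33 with at most 5 counts for off. With all 24 libraries the second set held 0 genes, since IT HLC replicate 3 carries those transcripts. Leaving out each library in turn, the first set held 28 to 35 genes and the second 17 to 27, with 27 when IT HLC replicate 1 was left out.

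With DESeq2 the called members numbered 7 in SW LLC against IT LLC, 5 in SW HLW against IT HLW and 5 in IT HLW against IT LLW. Of all genes 41.6%, 24.3% and 21.9% were called in that order. The cause was not tested. With all 24 libraries in the fit they numbered 7 in SW LLC against IT LLC, 2 in SW HLW against IT HLW, 3 in SW HLC against IT LLW, 1 in SW HLC against SW HLW and 2 in IT HLW against IT LLW. The shares of all genes were 42.7%, 24.4%, 46.3%, 40.7% and 22% in that order. The added library holds second-set transcripts that its group otherwise lacks. With fits of the compared groups alone they numbered 6 in SW LLC against IT LLC, 6 in SW LLC against SW LLW and 5 in SW HLW against IT HLW. Of all genes 38.1%, 34.2% and 25.5% were called in these fits, and why the members moved was not tested. Other counts of members and adjacent genes stayed within 1.5 times, among them those with DESeq2's size factors, no filter, nuclear genes alone, or, chosen after the data were seen, no TMM factor. Calls over all genes moved further: without the TMM factor from 4670 to 8154 in SW LLW against IT LLW, and with the compared groups alone from 6797 to 4018 in IT HLC against SW LLW, 6704 to 3697 in IT HLC against IT LLC and 5066 to 1851 in SW HLC against IT HLC.

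Leaving out each library in turn gave 8 to 14 called members in SW LLC against IT LLC, 10 to 12 in IT HLC against SW LLW, 8 to 13 in SW LLC against SW LLW and 9 to 15 in IT HLC against IT LLC (9 without IT HLC replicate 1, which leaves that group 1 library, assumed to vary like the others). In the second set it gave 5 to 8 in SW HLW against IT HLW (5 without SW HLW replicate 2), 9 to 12 in SW HLC against IT LLW, 5 to 7 in SW HLC against SW HLW, and 5 to 8 in IT HLW against IT LLW (5 without IT LLW replicate 1 or IT HLW replicate 2). Among adjacent genes it gave 22 to 26 called in LLW and 20 to 23 in HLC, and with 3 genes on each side 56 and 53 of 109 were called. The first-set share in IT HLC replicate 3 was 47.59% against the mean of all groups that carry the set.

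Same-numbered libraries did not deviate together (median correlation 0.00092, -0.282 to 0.177, over 77 pairs), so the numbers were not taken as pairs. A fit with the replicate block gave 11, 11, 10 and 14 called members in the first-set comparisons in the order above, 7, 12, 5 and 7 in those of the second set, and 26 and 22 adjacent genes. No named result that was called changed sign under these alternatives. As 1 is the lowest value written, off does not show that a transcript was absent.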
